A study of Rattus norvegicus with 21 samples.

Results

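The genes described here encode the early components of complement: the 3 chains of C1q (C1qa, C1qb, C1qc), the C1 proteases C1r and C1s, C2, C3, factor B (Cfb) and factor D (Cfd). Their signals were followed in anterior pituitaries taken from male rats. The members were all probe sets of the array whose platform annotation named 1 of these 9 genes, which gave 11 of the 31042 probe sets that are not Affymetrix controls. Each of 7 genes had 1 probe set of its own, and 4 probe sets were annotated to C2 and Cfb together, so that no signal could be given to C2 or to Cfb alone.

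The arrays came from ACI rats, Copenhagen (COP) rats and Brown Norway (BN) rats, 3 inbred strains. DES rats carried, from the age of 9 weeks, a silastic implant that held 5 mg of the synthetic estrogen diethylstilbestrol (DES), and exposure ended with death at 21 weeks, 12 weeks later. Control rats carried an empty implant, and rats of every group were given BrdU at 50 mg/kg 4 hours before death. There were 4 DES arrays (1 to 4) and 3 control arrays (1 to 3) in each strain, 21 in all. The design text and the sample notes disagree on whether every array is an independent rat, the notes giving 1 fewer per group, so the p values measure the spread between arrays.

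Complement is a cascade of plasma proteins that marks microbes, dying cells and immune complexes for removal. C1q recognises the target, and the proteases C1r and C1s bound to it cleave C4 and C2 to form the convertase that splits C3. The alternative pathway builds its own C3 convertase from factor B, which factor D cleaves, and both routes meet at C3. Much complement is made in the liver, but tissues make their own, and macrophages and microglia are a well known source of C1q. C3 is a long known estrogen-induced gene of the rat uterus.

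The C1q genes lie next to each other on chromosome 5 with 0 protein-coding genes starting between them, C1r and C1s are neighbours on chromosome 4 and C2 and Cfb on chromosome 20, whereas C3 is on chromosome 9 and Cfd on chromosome 7 (RefSeq annotation of GRCr8). The 250 bases before the annotated gene start are shown for C1qa and C1qb, which lie on either side of C1qc and moved together. They are also shown for C3 and Cfd, each of which was called with DES in some strains but not in all. The positions on GRCr8 are chr5:154419934-154420183 for C1qa, chr5:154407828-154408077 for C1qb, chr9:2201340-2201589 for C3 and chr7:10465497-10465746 for Cfd, all on the minus strand. Capitals mark each match to a motif searched on both strands.
C1qa: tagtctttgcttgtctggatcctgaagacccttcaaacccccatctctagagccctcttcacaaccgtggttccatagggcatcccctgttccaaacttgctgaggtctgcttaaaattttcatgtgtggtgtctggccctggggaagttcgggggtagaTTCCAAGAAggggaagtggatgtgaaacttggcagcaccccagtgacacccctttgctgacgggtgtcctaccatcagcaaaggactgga
C1qb: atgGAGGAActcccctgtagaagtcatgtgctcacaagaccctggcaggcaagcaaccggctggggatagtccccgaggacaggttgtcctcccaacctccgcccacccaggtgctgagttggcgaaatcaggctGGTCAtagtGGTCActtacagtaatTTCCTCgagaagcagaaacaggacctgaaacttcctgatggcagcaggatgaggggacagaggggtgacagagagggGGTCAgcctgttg
C3: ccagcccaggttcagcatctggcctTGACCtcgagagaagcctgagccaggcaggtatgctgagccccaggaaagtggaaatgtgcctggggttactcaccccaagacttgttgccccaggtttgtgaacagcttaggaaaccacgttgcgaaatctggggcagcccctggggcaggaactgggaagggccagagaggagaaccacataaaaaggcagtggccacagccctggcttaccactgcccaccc
Cfd: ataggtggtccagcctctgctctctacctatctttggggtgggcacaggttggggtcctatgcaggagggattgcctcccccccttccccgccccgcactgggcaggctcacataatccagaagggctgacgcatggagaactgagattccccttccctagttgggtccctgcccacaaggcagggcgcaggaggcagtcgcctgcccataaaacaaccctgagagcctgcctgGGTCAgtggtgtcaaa

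Of 5 motifs searched, GGTCA, a single arm of the estrogen response element, was found 3 times before C1qb, once before Cfd and once, as TGACC on the other strand, before C3. It was not in the C1qa window. The same letters were in 35.42% of 33469 rat promoter windows of this length, and the full palindrome, GGTCA and TGACC set 3 bases apart, which contains GGTCA, was in 0.02% of them and in none of these windows. The macrophage PU.1 core GAGGAA was present at 2 places before C1qb (1 of them as TTCCTC) and in 23.34% of all windows. The STAT motif TTCNNNGAA was found before C1qa, as TTCCAAGAA at −90 to −82, and in 7.67% of all windows, and the interferon motif, GAAA repeated after 2 bases, in 3.41% of all windows, was in none of the windows shown. C1qa and C1qb had no motif in common. A promoter window of C1r held GGTCA and GAGGAA once each, and those of C1qc, C1s, C2 and Cfb were not analysed here.

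Signals are given on the linear scale of the array, on which each array had been scaled to a trimmed mean of 500.1 to 500.2, and cannot be set against those of another probe set. Array medians lay between 118.8 and 151.4, and in each strain every DES array had a lower median than every control array. In ACI they were 118.8 to 125 with DES and 141.25 to 144.8 in controls. Changes are on the scale of log2(signal + 16), which understates the change of a dim probe set, and a call means an adjusted p under 0.05 (limma, Benjamini-Hochberg over 21858 probe sets). All 11 passed the filter on low signals. Cfd passed it through the 8 ACI and COP DES arrays alone, on which it is high, and 1 Cfb/C2 probe set was above the limit on 19 arrays and the others on all 21. All 7 anterior pituitary hormone genes listed were measured. With DES the gonadotropin subunit gene Lhb fell in each strain (-6.08 for ACI, -5.54 for COP and -3.61 for BN), which does not itself check the tissue label. The 7 genes did not all fall. With DES, 0 were called higher and 4 lower in ACI, 2 higher and 4 lower in COP, and 3 higher and 2 lower in BN. The summed signal of 5 neural lobe marker genes was lower with DES in each strain. It was 727.2 to 1054.4 in ACI DES rats against 2871.2 to 3363.2 in ACI controls, and 846.9 to 1404.9 against 2784.4 to 5727.1 in COP. In BN it was 1362.9 to 1789.8 against 2861.6 to 3314.5. Of these genes 4 passed the filter, and 2 of them were called lower with DES in ACI, 3 in COP and 2 in BN, with 0 higher. The part of neural lobe tissue in the results was not tested.

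DES changed most of the members in ACI and COP and fewer in BN, and calls over all probe sets were fewer in BN too. In ACI, 7 of the 11 probe sets were called, 5 higher and 2 lower, against 49.1% of all probe sets tested (19.8% higher and 29.3% lower). In COP, 9 were called, 7 higher and 2 lower, against 43.1% of all (17.9% higher and 25.2% lower). In BN, 5 were called, 3 higher and 2 lower, against 33.5% of all (14.0% higher and 19.4% lower). The members' shares were thus 63.6%, 81.8% and 45.5% in ACI, COP and BN. Their median change was 0.16 for ACI, 0.75 for COP and -0.26 for BN, beside medians of -0.13, -0.09 and -0.06 over all probe sets. These medians count the 4 Cfb/C2 probe sets singly. For the 7 genes with a probe set of their own the medians were 2.43, 2.50 and 0.80, and for those 4 probe sets -0.07, 0.46 and -0.31.

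**Figure D1:**
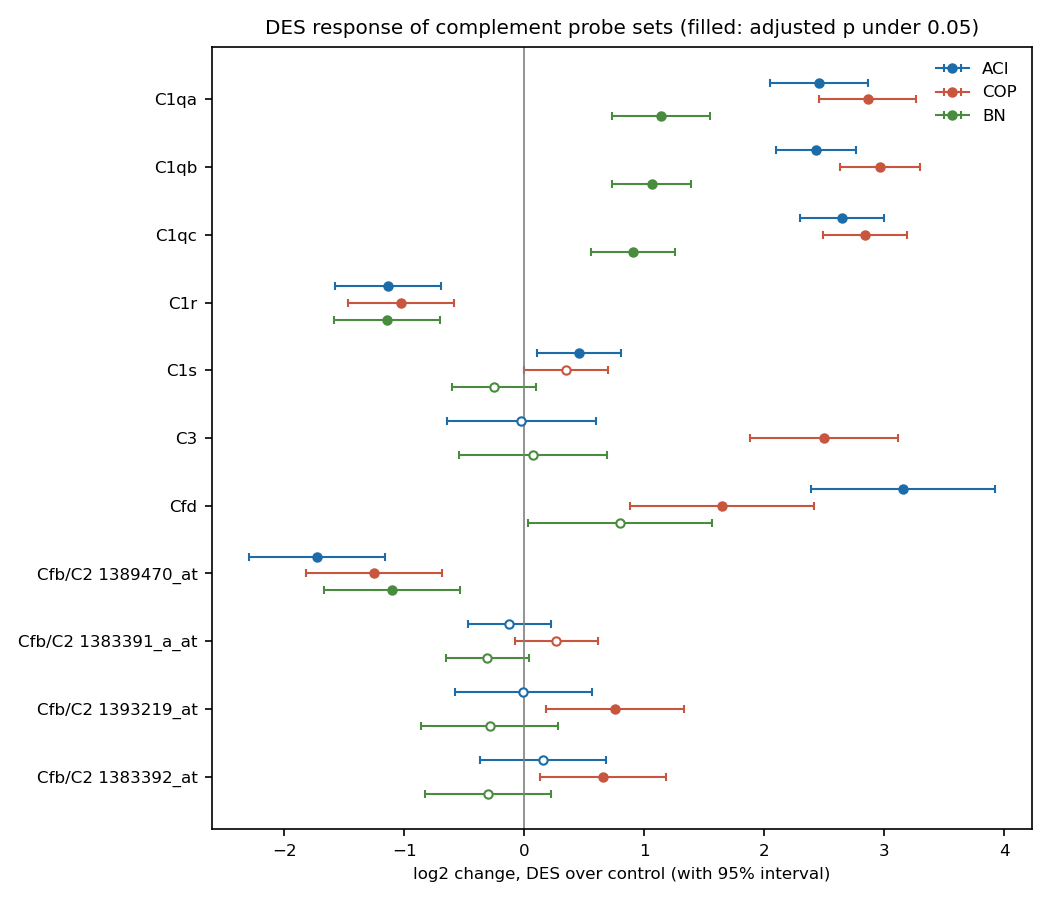
Change with DES (DES minus control, log2(signal + 16) scale) of each member probe set in ACI, COP and BN rats, with 95% confidence intervals from limma. The 3 C1q genes lie above 0 in every strain and highest in ACI and COP, C1r and 1 Cfb/C2 probe set lie below 0 in every strain, and C3 departs from 0 in COP only.

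The 3 C1q chains rose together in all 3 strains, and more in ACI and COP than in BN. C1qa, the A chain, gave signals of 4577, 4813, 4624 and 5608 in the ACI DES rats, against 851, 795 and 1002 in ACI controls. In COP it gave 4417, 5742, 5127 and 6472 in DES rats, against 560, 747 and 923 in controls. In BN it gave 2774, 2814, 4614 and 5224 in DES rats, against 1825, 1505 and 1707 in controls. Every DES array lay above every control array of its strain, but the BN DES rats spread widely, with arrays 3 and 4 far above arrays 1 and 2. The change in C1qa was 2.46 ± 0.20 (SE) in ACI (adjusted p = 7.2e-10), 2.86 ± 0.20 in COP (adjusted p = 1.04e-10) and 1.14 ± 0.20 in BN (adjusted p = 9.93e-05), all from limma.

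C1qb, the B chain, gave 2524, 2753, 2350 and 2684 in ACI DES rats, against 444, 505 and 448 in ACI controls. In COP the signals were 2504, 2922, 2796 and 3345 with DES, against 305, 332 and 440 without. In BN they were 1308, 1164, 1324 and 2046 with DES, against 752, 701 and 583 in controls. Again no DES array reached down to a control array of its strain, and BN DES array 4 stood above the other BN arrays. The change was 2.43 ± 0.16 (SE) in ACI (adjusted p = 3.07e-11), 2.96 ± 0.16 in COP (adjusted p = 2.37e-12) and 1.06 ± 0.16 in BN (adjusted p = 2.1e-05; limma).

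C1qc, the C chain, gave 2098, 2258, 2205 and 2719 in ACI DES rats, against 320, 291 and 480 in ACI controls. In COP the signals were 1900.5, 2162, 2023 and 2553 with DES, against 260, 278 and 324 in controls. In BN they were 1038, 835, 1249.5 and 1378 with DES, against 629, 559 and 564 in controls. The groups did not overlap in any strain, and they came closest in BN, with means of 1125 ± 239 in DES rats (SD, n = 4) and 584 ± 38.8 in controls (SD, n = 3). The C1qc change was 2.65 ± 0.17 (SE) in ACI (adjusted p = 1.86e-11), 2.84 ± 0.17 in COP (adjusted p = 9.56e-12) and 0.90 ± 0.17 in BN (adjusted p = 0.000233; limma). Of all probe sets, 21.9% in ACI, 20.4% in COP and 14.9% in BN had every DES array above every control array of the strain.

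**Figure D2:**
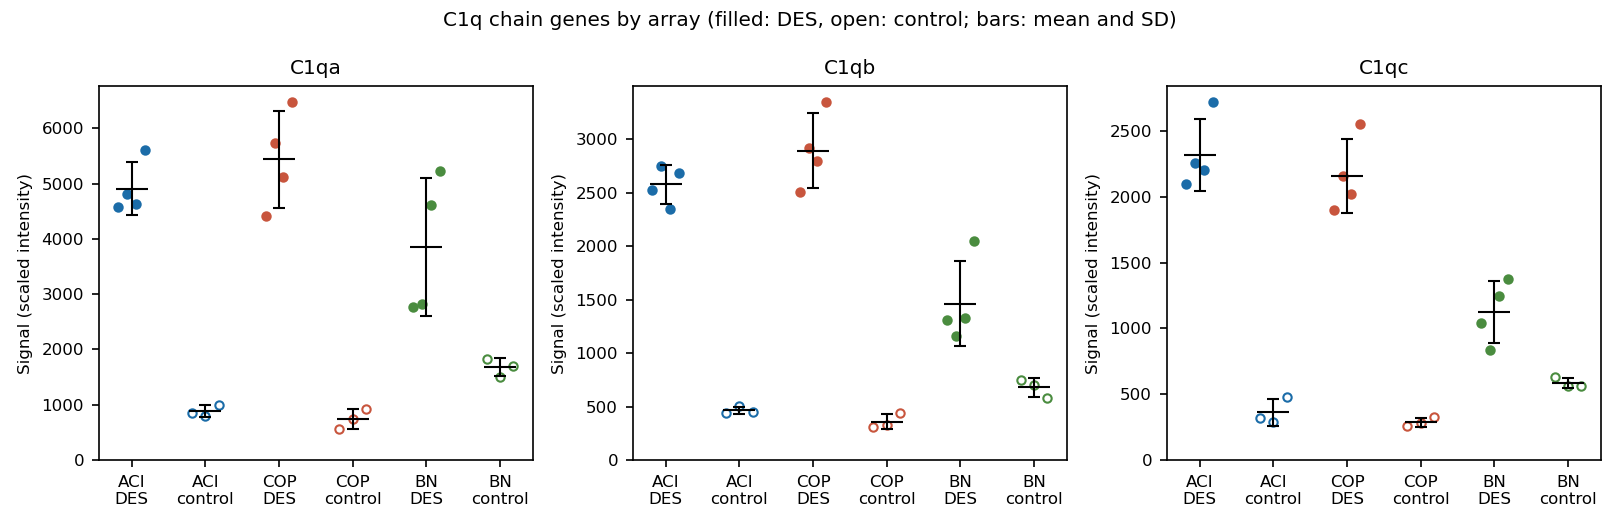
Signals of C1qa, C1qb and C1qc (linear array units) on each of the 21 arrays, DES left of control in each strain, with group means and SD. For each gene the DES rats lie above the controls of their strain, BN controls lie above ACI and COP controls, and BN DES rats have the lowest mean of the DES groups.

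The strains were set against each other in the size of this response. The C1qa response was larger in ACI than in BN by 1.32 (95% interval 0.74 to 1.89; adjusted p = 0.00245), that of C1qb by 1.37 (0.90 to 1.84; adjusted p = 0.000276) and that of C1qc by 1.74 (1.25 to 2.24; adjusted p = 3.26e-05; limma). COP exceeded BN by 1.72 for C1qa (adjusted p = 0.000499), 1.90 for C1qb (adjusted p = 2.05e-05) and 1.94 for C1qc (adjusted p = 2.53e-05). Between ACI and COP none of the 3 passed the test, and 1, C1qb, had an unadjusted p under 0.05 (0.0267). The differences were -0.40 for C1qa (-0.98 to 0.17; adjusted p = 0.703), -0.53 ± 0.22 for C1qb (SE; adjusted p = 0.398) and -0.19 for C1qc (-0.68 to 0.30; adjusted p = 0.88). Over the 11 members the response differed by this test in 5 probe sets between ACI and BN (14.1% of all probe sets), in 4 between COP and BN (5.22% of all) and in 1 between ACI and COP (0.526% of all). In BN the C1q response was smaller in the lower-numbered arrays. With array numbers 1 and 2 alone it was 0.75 for C1qa, 0.75 for C1qb and 0.64 for C1qc, and with numbers 3 and 4 alone, where each control group holds 1 array, 1.52, 1.47 and 1.19. With numbers 3 and 4 alone the C1qb response no longer passed the test of the difference, at 0.97 between ACI and BN (adjusted p = 0.0714) and 1.28 between COP and BN (adjusted p = 0.0687).

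C1q is made chiefly by macrophages and microglia, and 13 marker genes of these cells were read beside it. Of the 13, 12 were higher with DES in ACI, with a median change of 1.70, among them the scavenger receptor gene Cd68 (2.04, adjusted p = 7.02e-10) and the endotoxin co-receptor gene Cd14 (1.84, adjusted p = 5.61e-08). In COP, 11 were higher and 1, the lysozyme gene Lyz2, lower (median 1.70), and in BN 4 were higher (median 0.43), with Cd68 at 0.43 (adjusted p = 0.0425) and Cd14 at 0.60 (adjusted p = 0.019; limma). Their summed signal was 14466.0 to 15282.7 in ACI DES rats, against 6098.5 to 8427.4 in ACI controls, and 13218.3 to 17940.5 in COP DES rats, against 7959.1 to 9207.3 in COP controls. In BN it was 9645.4, 9719.7, 15773.9 and 16904.4 in DES rats 1 to 4, against 9669.7, 8335.7 and 11200.4 in controls. The same 2 BN DES arrays, 3 and 4, were thus high in the marker sum and in C1qa. Arrays 1 and 2 were within the range of the BN controls for the marker sum but above it for C1qa. For C1qc arrays 3 and 4 were also the highest, at 1249.5 and 1378, against 1038 and 835. For C1qb array 3 (1324) lay close to array 1 (1308), and only array 4 (2046) stood apart. No marker was at 0. The markers' part in the C1q result was not tested, and in whole-gland RNA more cells of a type and more RNA per cell cannot be told apart.

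**Figure D3:**
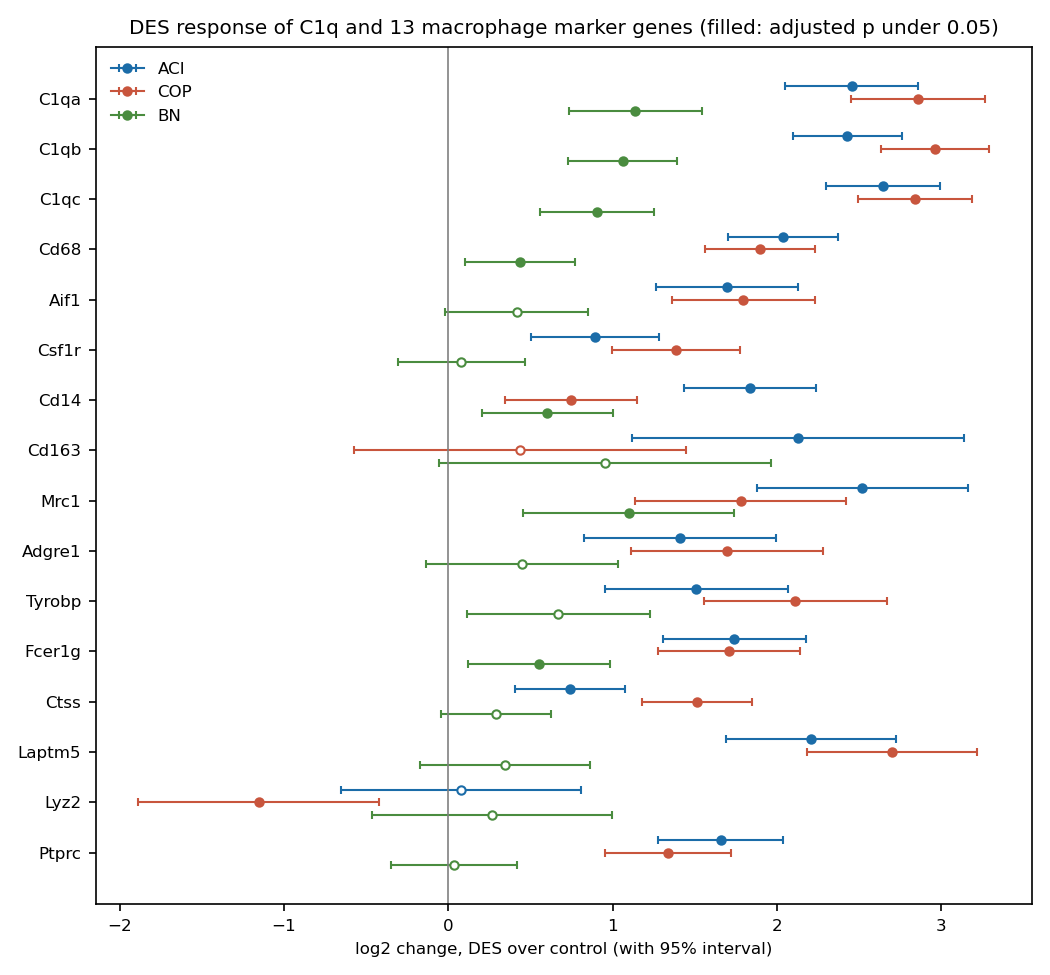
Change with DES (log2(signal + 16) scale) of C1qa, C1qb and C1qc above the 13 macrophage and microglia marker genes in ACI, COP and BN rats, with 95% confidence intervals, filled where called. Most markers lie to the right of 0 in ACI and COP, with Lyz2 to the left in COP, and in BN 4 are called.

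C1r, the protease that activates C1s within the C1 complex, fell in all 3 strains. Its signals were 92.0, 141.9, 140.7 and 150.8 in ACI DES rats, against 316.2, 364.0 and 241.7 in ACI controls. In COP they were 145.4, 193.9, 113.6 and 193.2 with DES, against 357.8, 251.4 and 431.2 without, and in BN 196.2, 188.8, 220.7 and 197.1 with DES, against 485.1, 382.1 and 533.7 without. The groups did not overlap in any strain, as was so, in that direction, for 32.0% of all probe sets in ACI, 27.9% in COP and 21.9% in BN. C1r changed by -1.14 ± 0.21 (SE) in ACI (adjusted p = 0.000121), -1.03 ± 0.21 in COP (adjusted p = 0.000445) and -1.15 ± 0.21 in BN (adjusted p = 0.000234; limma). The ACI fall was -0.67 (adjusted p = 0.152) with array numbers 3 and 4 alone. The responses of the strains lay close together, with a difference of 0.01 between ACI and BN (-0.61 to 0.63; adjusted p = 0.988), -0.11 between ACI and COP (-0.73 to 0.52; adjusted p = 0.957) and 0.12 between COP and BN (-0.51 to 0.74; adjusted p = 0.89). Among 8 fibroblast marker genes, of a cell type known to make C1r, DES rats were lower in 5 for ACI, 6 for COP and 3 for BN, and 1, Col1a2, was higher in ACI and COP. Their summed signal was 2305.3 to 2954.4 in ACI DES rats, against 8846.5 to 11415.8 in ACI controls, 1563.7 to 2286.8 in COP DES rats, against 9814.6 to 10991.6 in COP controls, and 1789.2 to 4788.0 in BN DES rats, against 4561.1 to 6312.7 in BN controls. Fibroblast markers were not alone in this: of 6 folliculostellate cell marker genes, 6 were called lower with DES in ACI, 5 in COP and 5 in BN. The part of either cell type in the C1r result was not tested.

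C1s, the protease that cleaves C4 and C2, passed the test in ACI alone, where it was higher with DES and not lower like its neighbour C1r. It gave 678.4, 716.0, 579.5 and 685.0 in ACI DES rats, against 524.1, 456.5 and 461.2 in ACI controls. The ACI groups did not overlap, as was so, in that direction, for 21.9% of all probe sets. In COP it gave 678.8, 771.2, 574.5 and 647.2 with DES, against 570.4, 464.2 and 526.3 without, and in BN 502.0, 635.7, 613.3 and 936.6 with DES, against 626.6, 823.0 and 937.4 without, where the groups overlapped. The change was 0.45 ± 0.17 (SE) in ACI (adjusted p = 0.0298), 0.35 ± 0.17 in COP (adjusted p = 0.102) and -0.26 ± 0.17 in BN (adjusted p = 0.261; limma). The ACI call was lost when ACI control array 2 or 3, or ACI DES array 1, 2 or 4, was left out (0.42 to 0.52 over all arrays left out, adjusted p up to 0.0889). The response was larger in ACI than in BN by 0.71 (0.22 to 1.20; adjusted p = 0.0495). That call was lost without any 1 of the ACI control arrays, ACI DES array 1, 2 or 4, BN control array 2 or 3 or BN DES array 1, 2 or 3 (0.58 to 0.88 over all arrays left out, adjusted p up to 0.138). In BN the change ran between -0.42 and -0.13 when 1 BN array was left out (adjusted p up to 0.649), and C1s was called lower only without BN DES array 4 (adjusted p = 0.0389).

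C3, the component on which all activation routes converge, rose in COP. The COP DES rats gave 1289, 1939, 1773 and 2276, against 217, 330 and 384 in COP controls. The ACI DES rats gave 955.0, 370.5, 449.2 and 261.4, against 451.3, 517.6 and 421.0 in ACI controls. The BN DES rats gave 1494, 1481, 1048 and 1455, against 1528, 901 and 1558 in BN controls. COP DES rats stood clear above their controls, as was so for 20.4% of all probe sets in COP. In ACI and in BN the groups overlapped, with ACI DES array 1 high and arrays 2 and 4 low. The change was 2.50 ± 0.30 (SE) in COP (adjusted p = 5.31e-07), a 5.65-fold rise, against -0.03 ± 0.30 in ACI (adjusted p = 0.952) and 0.07 ± 0.30 in BN (adjusted p = 0.884; limma). The intervals of -0.64 to 0.59 in ACI and -0.55 to 0.69 in BN bound the change in those strains.

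The C3 response itself differed between strains, being lower in ACI than in COP by 2.52 on the log2 scale (a difference of -2.52, 95% interval -3.40 to -1.65; adjusted p = 0.00688) and higher in COP than in BN by 2.43 (1.55 to 3.30; adjusted p = 0.00106; limma). It was the 1 member called between ACI and COP. With array numbers 1 and 2 alone the ACI and COP difference was -2.20 (adjusted p = 0.0228), and with numbers 3 and 4 alone -2.62 (adjusted p = 0.051). Between ACI and BN the difference was -0.10 (-0.97 to 0.78; adjusted p = 0.916). In BN the mean signal was 1370 ± 215 in DES rats (SD, n = 4) and 1329 ± 371 in controls (SD, n = 3), and in ACI it was 509 ± 307 in DES rats and 463 ± 49.4 in controls, so the 2 strains in which C3 was not called differed in level.

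Cfd, also known as adipsin, the protease that cleaves factor B, rose in ACI and COP. Its signals were 449.8, 533.7, 575.2 and 824.3 in ACI DES rats, against 65.1, 73.1 and 26.0 in ACI controls. In COP they were 192.8, 310.9, 209.7 and 145.9 with DES, against 36.6, 58.0 and 77.6 without, and in BN 50.4, 51.0, 41.9 and 78.8 with DES, against 66.4, 21.1 and 5.7 without. Thus ACI DES rats were all above COP DES rats, as for 5.30% of all probe sets tested, and COP DES rats were all above BN DES rats, as for 9.89%, while the 9 control arrays lay low and overlapped. The change was 3.15 ± 0.37 (SE) in ACI (adjusted p = 2.83e-07), an 8.89-fold rise and the greatest of the 11 members there, 1.65 ± 0.37 in COP (adjusted p = 0.000983) and 0.80 ± 0.37 in BN (adjusted p = 0.104; limma). Since control and BN signals were below the filter limit, the folds and the rank rest on the 16 added before the logarithm. Cfd was tested only because it was high on the ACI and COP DES arrays, so its p values, also between strains, are not free of that choice. The BN change ran between 0.35 and 1.31 when 1 BN array was left out (adjusted p up to 0.532) and was called only without BN control array 1 (1.31, adjusted p = 0.00931). With array numbers 3 and 4 alone the COP change was 1.03 (adjusted p = 0.145).

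The Cfd response was larger in ACI than in BN by 2.36 (1.27 to 3.44; adjusted p = 0.00372), a call lost with 1 in place of 16 added before the logarithm (2.16, adjusted p = 0.0612). The difference was 1.51 between ACI and COP (0.42 to 2.59; adjusted p = 0.264) and 0.85 between COP and BN (-0.24 to 1.93; adjusted p = 0.423; limma). Cfd is best known as a product of fat cells. Of 5 fat cell marker genes only the adiponectin gene Adipoq passed the filter on low signals, and its changes were -3.39 in ACI (adjusted p = 1.77e-07), -1.98 in COP (adjusted p = 0.000245) and -1.48 in BN (adjusted p = 0.00482). The summed signal of the 5 was 19.8 to 187.5 in ACI DES rats, against 550.6 to 917.7 in ACI controls. It was 141.7 to 276.0 in COP DES rats, against 482.5 to 654.9 in COP controls, and 104.5 to 267.1 in BN DES rats, against 208.1 to 291.5 in BN controls. Their part in the Cfd result was not tested.

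**Figure D4:**
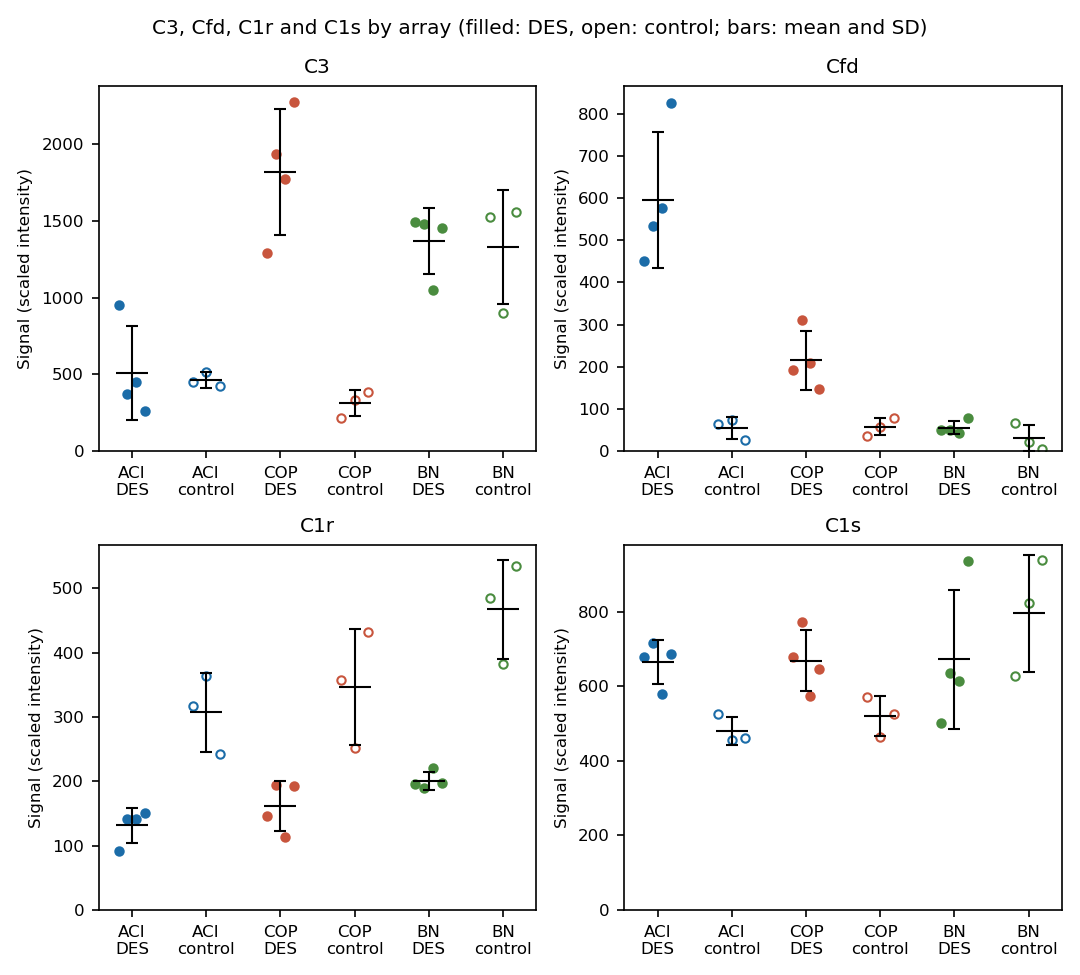
Signals of C3, Cfd, C1r and C1s (linear array units) on each array, DES left of control in each strain, with group means and SD. C3 separates DES from control rats in COP alone, Cfd in ACI and COP, and C1r in all 3 strains with DES below control.

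The 4 probe sets shared by C2 and Cfb did not move as 1. C2 and factor B supply the protease part of the C3 convertases of the classical and the alternative pathway. The probe set 1389470_at gave 123.5, 87.6, 146.2 and 87.7 in ACI DES rats, against 430.9, 390.5 and 372.5 in ACI controls. In COP it gave 115.9, 233.6, 163.0 and 168.0 with DES, against 353.0, 416.7 and 488.0 without, and in BN 140.0, 75.3, 158.2 and 83.3 with DES, against 193.5, 201.6 and 416.0 without. Every DES array was below every control array of its strain, as was so for 32.0% of all probe sets in ACI, 27.9% in COP and 21.9% in BN. The change was -1.73 ± 0.27 (SE) in ACI (adjusted p = 1.65e-05), -1.25 ± 0.27 in COP (adjusted p = 0.000748) and -1.11 ± 0.27 in BN (adjusted p = 0.00316; limma).

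The other 3 went differently from 1389470_at. The probe set 1383391_a_at averaged 375 ± 47.2 in ACI DES rats (SD, n = 4) and 409.5 ± 16.9 in ACI controls (SD, n = 3), and its changes were -0.13 in ACI, 0.27 in COP and -0.31 in BN, none of them called (adjusted p = 0.557, 0.214 and 0.162). The BN value ran between -0.52 and -0.19 when 1 BN array was left out (adjusted p up to 0.488), and was called without BN control array 2 (-0.52, adjusted p = 0.0257) or BN DES array 3 (-0.46, adjusted p = 0.032). The probe sets 1383392_at and 1393219_at were higher with DES in COP, by 0.66 (adjusted p = 0.0401) and 0.75 (adjusted p = 0.0312). Both COP calls were lost when COP control array 3, the lowest, was left out, at 0.41 (adjusted p = 0.251) and 0.34 (adjusted p = 0.318; limma), and also without COP DES array 1 or 2, and that of 1383392_at without COP control array 1 or COP DES array 4. In ACI the changes were 0.16 and -0.01 and in BN -0.30 and -0.29, and none was called. Since the annotation gives both genes to all 4, which of the genes or transcripts each one read was not tested.

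**Figure D5:**
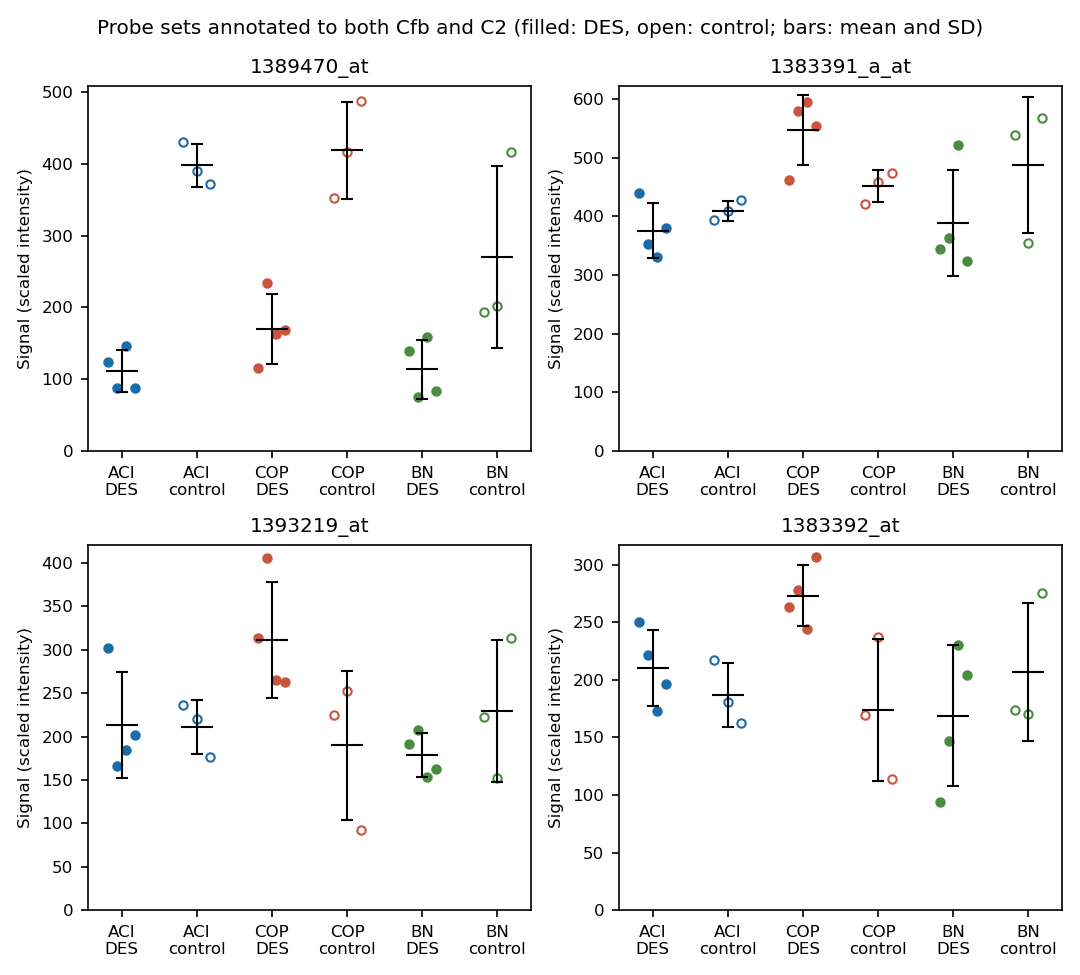
Signals of the 4 probe sets annotated to both C2 and Cfb (linear array units) on each array, DES left of control in each strain, with group means and SD. The probe set 1389470_at is lower with DES in all 3 strains, and the other 3 overlap between DES and control rats in ACI and BN.

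An exact two-sided permutation test of the log2 signals, whose smallest possible p with 4 against 3 arrays is 0.0286, gave that value in each strain for C1qa, C1qb and C1r. C1qc reached 0.0286 in ACI and COP and 0.0571 in BN by this exact test. Cfd had exact p = 0.0286 in ACI and COP and 0.2 in BN, C3 0.0286 in COP, 0.943 in ACI and 0.714 in BN, and C1s 0.0286 in ACI, 0.0571 in COP and 0.371 in BN.

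The strains also differed before treatment. Between ACI and COP controls none of the 11 was called by limma (1.20% of all probe sets were), and 1, C1qb, had an unadjusted p under 0.05 (0.0384). Against BN controls, ACI controls were lower in 4 of 11 (6.77% of all were called, 3.34% lower) and COP controls in 4 of 11 (5.69% of all, 3.04% lower). C3 was lower in ACI than in BN controls (-1.45 ± 0.32 SE, adjusted p = 0.00549) and in COP than in BN controls (-2.04 ± 0.32, adjusted p = 0.00023). C1qa followed, at -0.92 ± 0.21 (adjusted p = 0.00732) for ACI and -1.18 ± 0.21 (adjusted p = 0.000851) for COP. C1qc was lower in ACI controls (-0.69, adjusted p = 0.0191) and in COP controls (-0.99, adjusted p = 0.00108), and C1qb in COP controls (-0.90, adjusted p = 0.00169), with a difference of -0.52 for ACI (adjusted p = 0.0703). C1s was lower in ACI controls (-0.69, adjusted p = 0.0196), and the difference was -0.58 for COP (adjusted p = 0.0603). The C1qc call between ACI and BN controls was lost without ACI control array 1 or 2 or BN control array 1, and that of C1s without ACI control array 2 or 3 or BN control array 2 or 3, the differences then lying at -0.64 to -0.55 for C1qc and -0.67 to -0.57 for C1s. Of the macrophage and microglia markers, 4 of 13 (Csf1r, Ctss, Laptm5 and Ptprc) were also lower in ACI and in COP than in BN controls.

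Among DES rats, those of BN had the lowest mean of each C1q gene, whereas among controls they had the highest. C1qb was higher in ACI than in BN DES rats by 0.84 ± 0.15 SE (adjusted p = 0.000125) and in COP than in BN by 1.00 ± 0.15 (adjusted p = 3.41e-05). C1qc was higher by 1.05 in ACI (adjusted p = 1.82e-05) and 0.95 in COP (adjusted p = 0.000116), while C1qa was higher in COP by 0.54 (adjusted p = 0.0358) and stood at 0.40 in ACI (adjusted p = 0.1; limma). The C1qa call between COP and BN was lost without COP DES array 2, 3 or 4 or BN DES array 1 or 2 (0.40, adjusted p = 0.121, without BN DES array 1), and the value between ACI and BN was 0.56 (adjusted p = 0.0197) without BN DES array 4. Cfd was higher in ACI than in BN DES rats by 3.09 ± 0.34 (adjusted p = 4.44e-07), in COP than in BN by 1.67 ± 0.34 (adjusted p = 0.0011) and in ACI than in COP by 1.42 ± 0.34 (adjusted p = 0.0154). The last of these was 1.25 (adjusted p = 0.0712) without ACI DES array 4 and 1.26 (adjusted p = 0.0599) without COP DES array 4.

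C3 set ACI apart among DES rats, being lower than in COP (-1.94 ± 0.28 SE, adjusted p = 8.9e-05) and than in BN (-1.55 ± 0.28, adjusted p = 0.000157). COP and BN DES rats differed in C3 by 0.39 (-0.18 to 0.96; adjusted p = 0.346; limma). C1r was lower in ACI than in BN DES rats (-0.57, adjusted p = 0.0294), a call lost without ACI DES array 1 (-0.43, adjusted p = 0.119) or BN DES array 3 (-0.53, adjusted p = 0.0699). In all, 2 of the 11 were called between ACI and COP DES rats (4.68% of all probe sets), 5 between ACI and BN (31.3% of all) and 7 between COP and BN, all higher in COP (22.2% of all, 10.4% higher), the last including 3 Cfb/C2 probe sets higher in COP by 0.50 to 0.74. Each of these 3 lost its call without COP DES array 2 (0.47 to 0.70) or BN DES array 1 (0.45 to 0.77), and each without further single arrays.

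Of the rest of the cascade, the lectin pathway, which feeds into the same C4 and C2 step, had 5 tested genes. Of these, 2 rose and 2 fell with DES in ACI, 2 rose and 1 fell in COP and 1 rose and 1 fell in BN. The ficolin gene Fcna, a sugar-binding recognition molecule, rose to 557 ± 107 in ACI DES rats (SD, n = 4), against 65.0 ± 19.6 in ACI controls (SD, n = 3; 2.83, adjusted p = 2.19e-08), and to 244 ± 40.6 in COP DES rats, against 67.0 ± 17.7 in COP controls (1.65, adjusted p = 5.18e-05). In BN it was 82.0 ± 25.9 with DES and 53.4 ± 32.7 in controls (0.56, adjusted p = 0.133; limma). The control means and the BN mean with DES lay at or near the filter limit, so the size of these changes too depends on the 16 added. The collectin gene Colec11 fell in each strain (-2.09 for ACI, -1.91 for COP and -0.80 for BN), and Masp1, a protease gene of the pathway, rose by 0.74, 0.76 and 0.82.

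Regulators and receptors were read in the same way. Of 2 membrane regulators tested, Cr1l was lower with DES in ACI (-0.19, adjusted p = 0.0463) and was at -0.16 in COP and -0.08 in BN (adjusted p = 0.0959 and 0.451). Cd55, which encodes a membrane protein that breaks up C3 convertases, rose in all 3 strains. It averaged 910 ± 129 in BN DES rats (SD, n = 4), against 31.4 ± 15.2 in BN controls (SD, n = 3; 4.33, adjusted p = 2.34e-10), 335 ± 39.4 in ACI DES rats, against 28.3 ± 17.6 in ACI controls (3.08, adjusted p = 1.32e-08), and 425 ± 81.0 in COP DES rats, against 43.7 ± 24.4 in COP controls (2.94, adjusted p = 4.15e-08). Its control means lay below the filter limit, so it was tested only because it was high on DES arrays, and the size of its changes rests on the 16 added (limma). Properdin (Cfp), which stabilises the alternative convertase, rose by 0.95 in ACI (adjusted p = 0.00215) and 0.78 in COP (adjusted p = 0.0113), with 0.34 in BN (adjusted p = 0.288). Of 4 soluble regulators tested, clusterin (Clu) fell in ACI and COP, vitronectin (Vtn) rose in COP (1.18, adjusted p = 0.0109) and BN (1.54, adjusted p = 0.00204), and C4bpb rose in BN (1.48, adjusted p = 0.049).

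Of 6 complement receptor genes tested, 2 rose in ACI, C3ar1 (1.24, adjusted p = 0.00266) and the integrin chain gene Itgb2 (0.70, adjusted p = 0.00292), and 2 in COP, Itgam (2.18, adjusted p = 0.00065) and Itgb2 (0.92, adjusted p = 0.0003). Itgam with Itgb2 forms complement receptor 3, which binds fragments of C3. In BN these 3 genes stood at -0.08, -0.04 and 0.20 (C3ar1, Itgam and Itgb2), none called. C4, the substrate of C1s, was read by 1 probe set annotated to C4a and C4b together, which was 193.9, 332.1, 220.6 and 396.3 in COP DES rats, against 103.4, 132.5 and 56.1 in COP controls (1.42, adjusted p = 0.00264). Its change was 0.37 in ACI (adjusted p = 0.419) and -0.45 in BN (adjusted p = 0.359; limma). Among 4 later components of the cascade tested, C8g rose in ACI (0.72, adjusted p = 0.000882), and C5, C8b and C9 were not called in any strain.

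Interferon and NF-kB inducible genes, a class to which several complement genes belong, were also read. Of 11, 6 rose and 1 fell with DES in ACI, 5 rose and 1 fell in COP, and 1 rose and 4 fell in BN. The response was larger in ACI than in BN for 7 of them (6.23% of all probe sets), among them Irf7 (2.49, adjusted p = 4.16e-06) and Mx1 (3.04, adjusted p = 7.23e-05). It was larger in COP than in BN for 4 (2.80% of all), among them the guanylate-binding protein gene Gbp2 (1.87, adjusted p = 7.76e-05; limma). BN controls stood higher to begin with. Of the 11, 4 were called lower in ACI than in BN controls and 3 lower in COP than in BN controls. The summed signal of the 11 was 4995.2 to 5763.9 in BN controls, against 3066.2 to 4508.9 in BN DES rats. In controls it was 3002.0 to 3325.9 for ACI and 3593.0 to 4029.8 for COP.

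Over the 21 arrays, which share treatment, strain and array scaling, the log2 signals of the C1q genes ran almost in parallel, with Pearson's r of 0.985 between C1qb and C1qc, 0.975 between C1qb and C1qa and 0.976 between C1qc and C1qa. After the 6 group means were taken out, r was 0.583, 0.723 and 0.840. C3 ran less closely with them (0.417 to 0.538). Among 11737 genes searched, those closest to C1qc were the endoplasmic reticulum gene Erp44 (0.979), the Fc receptor chain gene Fcer1g (0.975) and the macrophage gene Aif1 (0.975), and the closest to C1qa was the leukocyte gene Cd53 (0.971) and to C1qb Mzb1 (0.975). The gene closest to Cfd was Fcna (0.969), described above. C3 lay nearest to the microglial gene Tmem119 (0.859) and to the cathepsin gene Ctss (0.845), C1s to Gbp2 (0.807) and C1r to Mpdz (0.925). Once the 6 group means were taken out, the closest genes were others. They were Elavl2 (0.908) for C1qc, Rbks (0.886) for C1qa, Tsfm (0.854) for C1qb and Tmem179 (0.845) for C3. For Cfd the closest was then Pou2f3 (0.801), for C1s Tmem138 (0.789) and for C1r Gadd45b (0.766). Fcer1g (0.878) stayed among the 3 closest to C1qc. These correlations describe likeness of pattern over 21 arrays and carry no test.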

How the data were processed

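RNA from male rat anterior pituitaries had been hybridized in 1 color to Affymetrix Rat Genome 230 2.0 arrays. The deposited values were linear intensity signals, 1 for each probe set, which the authors had scaled to a common trimmed mean on every array. How probes were summarized is not given in the sources used here, and background correction was left as the authors had made it. Of 31099 probe sets, 57 controls were left out. Of the rest, 20826 had 1 gene symbol, 436 several and 9780 none.

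A value of 16 was added before log2. The test took the 21858 probe sets that exceeded the 40th percentile on 3 or more arrays. limma 3.58.1 (R 4.3.3) fitted 6 group means over the 21 arrays, with a mean-variance trend. Two-sided p values were adjusted within each comparison (Benjamini-Hochberg), with each array taken as 1 rat. The script was tested on simulated data. Precision is limited by the number of arrays in a group.

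The members, the gene lists and the tests were chosen with earlier results of these data known. All 11 member probe sets are described. Of 126 genes in 18 lists, 110 were on the array, and of each list up to 4 genes with the lowest adjusted p in a comparison were named, with exceptions (genes named for their role or beside a member) chosen after their values were seen. Gene positions and promoter sequences are from RefSeq on GRCr8. Alternatives tried were other filters, other values added before log2, median centring, quantile normalization, no variance trend, blocks by replicate or array number, subsets of arrays and the omission of each array.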

Additional observations from a re-analysis of the deposited data

Results flagged for a closer look

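Among 33 groups of 4 DES arrays, each tested with Dixon's ratio at its 95% critical value, 2 had a single array far from the others, and chance marks about 1 group in 20. In BN DES rats, array 3 had a low C3 signal of 1048, against 1455 to 1494 on the other 3 (ratio 0.925). In ACI DES rats, array 1 had a low C1r signal of 92.0, against 140.7 to 150.8 on the other 3 (ratio 0.856).

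The response to DES differed between strains by a test of the difference itself (limma) in 10 cases. For C3 it was -2.52 in ACI minus COP and 2.43 in COP minus BN. For ACI minus BN it was 1.32 for C1qa, 1.37 for C1qb, 1.74 for C1qc, 0.71 for C1s and 2.36 for Cfd. For COP minus BN it was 1.72 for C1qa, 1.90 for C1qb and 1.94 for C1qc. Cfd passed the filter through the ACI and COP DES arrays alone, so its call is not free of that choice. The Cfd call was also lost with 1 added before the logarithm. That of C1s was lost on leaving out any 1 of several arrays (adjusted p up to 0.138, limma).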

How the results depend on the processing

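Over all alternatives 2739 values were recomputed for 132 member results, and 0 of the called values changed sign. With each array left out in turn, the number of the 11 probe sets called was 6 to 7 for DES in ACI, 7 to 9 in COP and 5 to 6 in BN. It was 0 between ACI and COP controls, 2 to 3 between ACI and BN controls (2 without ACI control array 2) and 4 to 5 between COP and BN controls. In DES rats it was 1 to 3 for ACI and COP (1 without ACI DES array 4 or COP DES array 4), 4 to 6 for ACI and BN and 3 to 6 for COP and BN (3 without COP DES array 2 or BN DES array 1). For the difference in response it was 1 (ACI and COP), 4 to 5 (ACI and BN) and 4 to 5 (COP and BN).

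With 1 instead of 16 added before log2, 1 was called between ACI and COP DES rats and 3 in the ACI and BN difference. A fit of only the groups compared called 4 between COP and BN DES rats. Array numbers 1 and 2 alone called 1 between ACI and COP controls and 1 between ACI and COP DES rats. Numbers 3 and 4 alone called 1 between ACI and BN controls, 1 between COP and BN controls, 3 between COP and BN DES rats, 0 in the ACI and COP difference and 2 in the ACI and BN difference. The cause was not tested, and these subsets hold fewer arrays.

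Same-numbered DES and control arrays deviated together, with r of 0.0805 to 0.238, over 0.1 in 5 of 9 pairs. Some differently numbered arrays did so too, such as DES array 4 with control array 3 (0.166 in ACI, 0.122 in COP and 0.180 in BN). DES arrays 1 and 2 deviated against control array 3, with r from -0.245 (BN DES array 2) to -0.124 (ACI DES array 2). Whether the numbers pair rats or mark sets of arrays was not tested. With the replicate number as a block, 6 probe sets were called in ACI, 8 in COP and 5 in BN, C1s in ACI (0.40) and 1383392_at in COP (0.61) no longer passing.

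Median centring moved the median of all probe sets in ACI to 0.08 and the share of its calls that were higher to 57.4%, against 40.4%. In DES rats it moved that share to 57.3%, against 31.6%, for ACI and COP, and to 64.3%, against 43.8%, for ACI and BN. In the difference in response it moved to 58.9%, against 32.2%, and to 63.5%, against 44.1%. With this centring C1s was called in COP (0.45) and C1r lost its call between ACI and BN DES rats (-0.42). Signals of Cfd in control and BN rats lay near or below the filter limit, which limits how well its folds are known.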
